A study of Mus musculus with 12 samples.

Results

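The response of Chd4 knockout B cells to lipopolysaccharide (LPS) and interleukin 4 (IL-4) was described from the 3 knockout (KO) libraries taken after 48 hr with both agents and the 3 KO libraries of unstimulated cells (0 hr). These 6 of the 12 RNA-seq libraries of the series were taken by their labels, and no measured value entered the choice. All cells were mouse splenic B cells. For stimulation, cells of both genotypes received LPS at 10 µg/ml together with IL-4 at 25 ng/ml. No library came from cells kept for 48 hr without the agents. Effects of the agents and of time in culture therefore cannot be told apart, and values after stimulation are those of the 48 hr libraries. The other 6 libraries were wild-type (WT) cells, 3 at 0 hr and 3 at 48 hr, and served to ask whether the responses differed. The promoter or cell type that drives the deletion, its position in Chd4, the age and strain of the mice, and whether each library came from its own animal were not given in the sources used here. P-values therefore measure the spread between these libraries, which may be technical.

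LPS is a component of bacterial outer membranes that B cells sense through Toll-like receptor 4, which signals by way of MYD88 to NF-kB transcription factors. IL-4 binds the receptor chain IL4RA and activates STAT6, which opens the IgG1 and IgE constant regions to transcription and directs class switching toward them. Given together, these agents drive resting follicular B cells to grow, divide, switch isotype and, in part, become antibody-secreting plasmablasts. CHD4 is the chromatin-remodelling ATPase of NuRD, a complex that joins nucleosome remodelling to histone deacetylation.

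Levels are given as CPM, read counts scaled to library size, and are not corrected for gene length. Changes are log2 fold changes (log2 change) of KO 48 hr against KO 0 hr with their standard errors (SE). A gene was called when edgeR's quasi-likelihood test gave a Benjamini-Hochberg adjusted p below 0.05 over the 19125 tested genes. Totals of the KO libraries were 39.2 M to 53.2 M counts. The defining B cell markers Cd79a, Cd79b and Ms4a1 were present in every KO library, the lowest group mean being that of Cd79a at 48 hr (862 CPM). Chd4 was at 100, 70.6 and 92.8 CPM in unstimulated and 51.3, 38.8 and 74.7 CPM in stimulated KO libraries, and the WT means were 86.8 CPM before and 107 CPM after stimulation; at 0 hr, therefore, Chd4 RNA did not set libraries labelled KO apart from WT. Chd4 was called lower within KO, with overlapping groups (log2 change -0.68, SE 0.22, adjusted p = 0.013), and the call was lost without KO 0 hr replicate 4 (-0.57, adjusted p = 0.055). Counts cover whole transcripts, and reads outside a deleted part would still be counted.

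A pair of KO libraries stood apart from the others. On the second principal component of the 6 KO libraries (8.24% of the variance), 0 hr replicate 6 lay at 39.1 and 48 hr replicate 12 at 64.9, against -43.6 to -10 for the other 4. The first component (78.4%) separated 0 hr from 48 hr. With all 12 libraries, replicates 6 and 12 lay at 9.7 and 6.6 on the second component (6.53% of the variance). WT libraries lay at 15.3 to 37.4 there, and the other KO libraries at -68 to -23.9. The pair thus lay between WT and the other KO libraries on this component, nearer to WT. Why it lay there was not tested. Replicates spread more in KO (biological coefficient of variation in edgeR 31.1% at 0 hr and 23.9% at 48 hr) than in WT (17.7% and 14.3%). For genes named by the fixed rule, the value without replicates 6 and 12 is given beside many results where a call changes or a fold moves by over 1.5 times. A result given without it may still depend on these libraries.

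Most of the measured transcriptome of the KO cells differed between 0 hr and 48 hr. Of 19125 genes, 6311 were higher (33.0%) and 7206 lower (37.7%) at 48 hr, or 70.7% in either direction. All 48 hr KO libraries lay above all 0 hr KO libraries for 6316 genes and below them for 7553. Groups without overlap were therefore common among all genes. At least 4-fold changes were estimated for 1898 called genes that rose and 2707 that fell, and 16-fold changes for 276 and 550. Without replicates 6 and 12 the counts were 6166 and 6488. The median change of all genes was -0.30 on the log2 scale. The split of the calls depended on scaling. Scaling factors were 1.28 to 1.35 in KO 0 hr and 0.742 to 0.766 in KO 48 hr. With upper-quartile scaling the median of all genes was -0.93 and 28.8% of the calls were higher, and with library totals alone -1.12 and 24.4%, against 46.7% here. All changes below are read against the median of -0.30. With library totals alone, the genes called lower numbered 6 rather than 2 of 27 G1 regulators, 4 rather than 1 of 22 amino acid supply genes, 4 rather than 1 of 30 endoplasmic reticulum genes and 5 rather than 2 of 34 interferon-response genes, and most members of these groups were still called higher. In bulk samples fewer cells of a type and less RNA per cell cannot be told apart.

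**Figure D1:**
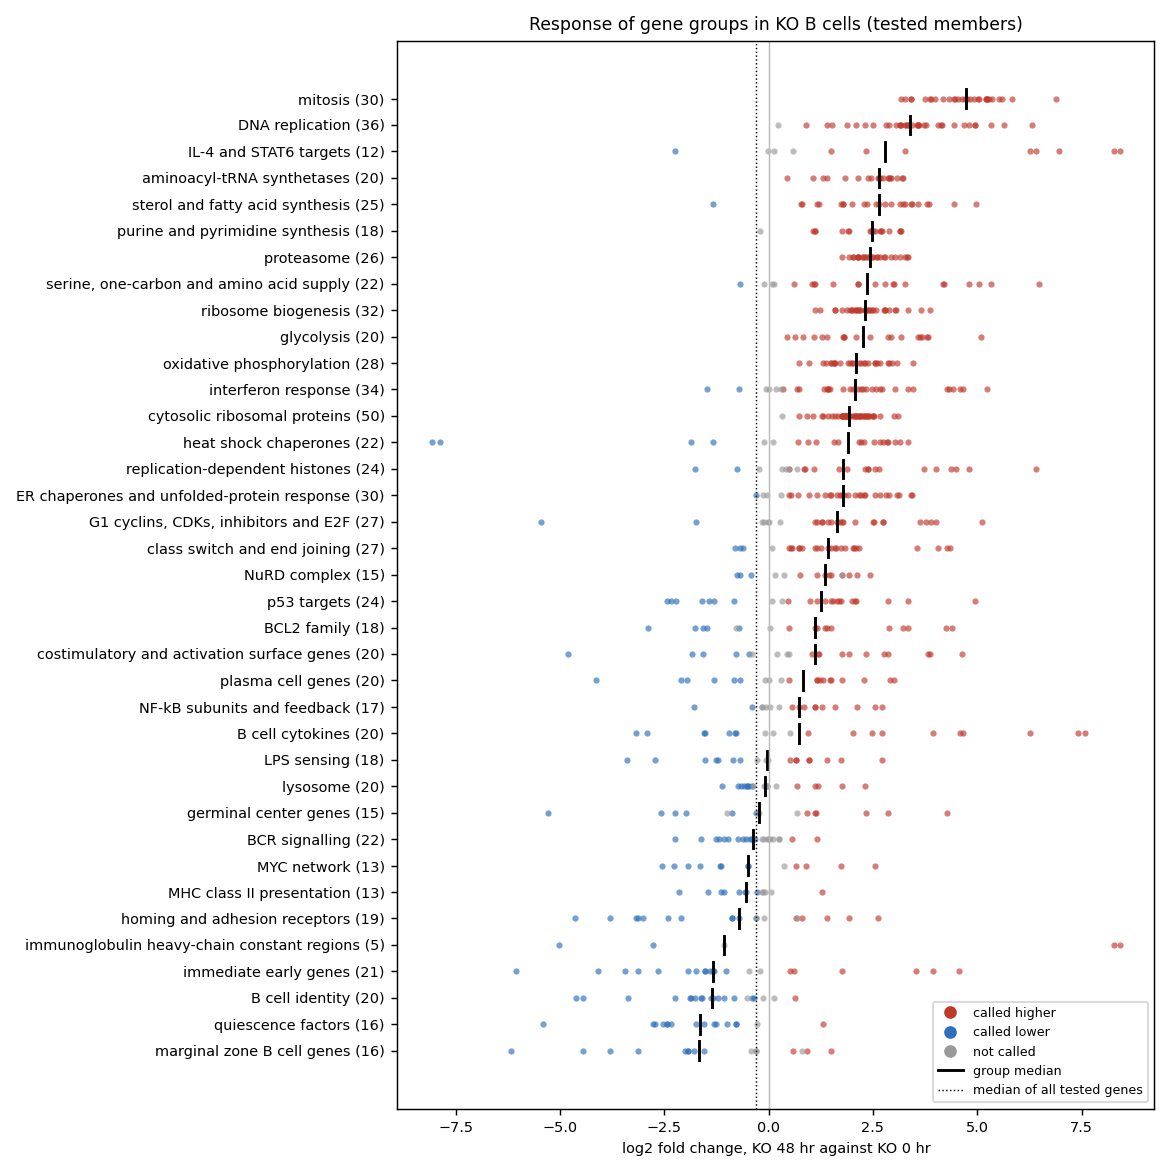
Log2 fold change of KO 48 hr against KO 0 hr (x axis) for each tested member of 37 gene groups (rows, with the number of tested members), coloured by call. Thick bars mark the group medians and the dotted line marks the median of all tested genes (-0.30). All 30 mitosis genes lie above 3, and most quiescence factors lie below the dotted line.

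Genes of cell division rose together. All 30 tested mitosis genes were called higher, with a median log2 fold change of 4.74 and a range of 3.18 to 6.89. The cyclin B1 gene Ccnb1, which drives entry into mitosis, was at 7.38, 6.93 and 11.1 CPM before and 984, 1060 and 975 CPM after stimulation. Every 48 hr library was far above every 0 hr library (log2 change 6.89, SE 0.23, adjusted p = 3.5e-11). Its kinase partner Cdk1 was at 9.99, 6.86 and 5.6 CPM before and 413, 462 and 395 CPM after stimulation, again without overlap (log2 change 5.83, SE 0.20, adjusted p = 4.1e-11). The spindle kinesin gene Kif20a went from 7.61 ± 1.26 CPM to 369 ± 18.6 CPM (SD, n = 3 each; log2 change 5.60, SE 0.24, adjusted p = 1.7e-10). The proliferation marker Mki67 went from 35.1 ± 8.84 CPM to 336 ± 23.9 CPM (log2 change 3.26, SE 0.17, adjusted p = 1.1e-09).

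DNA replication genes were higher with a single exception. Of 36 tested genes, 35 were called higher and 0 lower, with a median of 3.39, or 34 and 1 with library totals. Cdt1, a licensing factor, was not called (51.6 CPM at 0 hr, 60.2 CPM at 48 hr, adjusted p = 0.15). Orc1, the largest subunit of the origin recognition complex, was at 1.59, 1.83 and 1.28 CPM before and 124, 122 and 128 CPM after stimulation. The 0 hr libraries were all below 2 CPM (log2 change 6.31, SE 0.28, adjusted p = 2.2e-10). Mcm10 (log2 change 5.64, SE 0.20, adjusted p = 4.7e-11) and Cdc6 (log2 change 5.33, SE 0.25, adjusted p = 3.4e-10), which act at the loading and firing of the replicative helicase, rose by similar factors. Purine and pyrimidine synthesis genes were called higher in 17 of 18 (median 2.48), or 14 higher and 1 lower with library totals. Those that rose included the first enzyme of purine synthesis, Ppat (log2 change 3.17, SE 0.14, adjusted p = 3.2e-10), and the CTP synthase Ctps (log2 change 3.15, SE 0.10, adjusted p = 3e-11). Replication-dependent histones were more uneven: 17 of 24 tested of 26 listed were higher and 2 lower (median 1.79), with the largest rise in Hist1h3c (log2 change 6.41, SE 0.43, adjusted p = 1.3e-08). Hist1h2bc fell (log2 change -0.76, SE 0.25, adjusted p = 0.013), but 2 of the 12 fits without 1 library lost the call. These messages mostly lack the poly(A) tail on which the kit primes, and near-identical copies share reads, so single histone values are uncertain.

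Regulators of the G1 phase mostly rose. Of 27 cyclins, CDKs, inhibitors and E2F genes, 20 rose and 2 fell (median 1.65). Ccnd2, the main D-type cyclin of activated B cells, was at 168, 196 and 74.4 CPM before and 791, 620.2 and 1104 CPM after stimulation (log2 change 2.52, SE 0.29, adjusted p = 3.5e-06). Ccnd1 went the other way, at 7.37, 9.41 and 9.25 CPM before and 0.32, 0.211 and 0.0519 CPM after stimulation (log2 change -5.45, SE 0.42, adjusted p = 5e-08), and Cdkn1b, which encodes the inhibitor p27, averaged 23.5 CPM at 0 hr and 6.97 CPM at 48 hr (log2 fold change -1.75). Ccne2, the cyclin of S phase entry, went from 5.69 ± 2.29 CPM to 195 ± 8.25 CPM (log2 change 5.11, SE 0.27, adjusted p = 1.3e-09). Tfdp1, the dimer partner of E2F factors (log2 change 4.02, SE 0.13, adjusted p = 3e-11), and the late repressor E2f8 (log2 change 3.76, SE 0.17, adjusted p = 2.3e-10) rose as well. Myc, a driver of growth, went from 88.7 ± 13.7 CPM to 294 ± 22.8 CPM (log2 change 1.73, SE 0.12, adjusted p = 1.6e-08). Within the MYC network of 13 genes, 4 were higher and 8 lower (median -0.50): the antagonist genes Mxd1 (log2 change -1.65, SE 0.20, adjusted p = 7.4e-06) and Mxd4 (log2 change -1.94, SE 0.23, adjusted p = 5.5e-06) fell, while Mxd3, which is expressed in dividing cells, rose (log2 change 2.55, SE 0.23, adjusted p = 2.7e-07).

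Promoters of some of these genes are shown because the groups moved together and their motifs can be read in the letters. Promoters (250 bases before to 50 after the start) are those of RefSeq on GRCm38.p6. Motifs were searched on both strands. TTTGAA, the core of the cell cycle genes homology region (CHR), was present in 20 of 26 promoters matched for 25 of the 30 mitosis genes (76.9%), against 17.9% of 32851 promoters in the table and 17.4% of the promoters of genes called at least 4-fold higher. CCAAT was also present in 20 of 26 (76.9%), against 37.4% of all and 42.7% of those of genes called at least 4-fold higher. TTCCCGC, the core E2F site, was present in 12 of 33 promoters of DNA replication genes (36.4%), against 4.60% of all promoters, 11.8% of those of genes called at least 4-fold higher and 4.40% of those at least 4-fold lower. Such matches describe letters and not binding. The Cdk1 promoter lies on the minus strand at chr10:69352863-69353162, with 2 TTTGAA matches in capitals. The Ccnb1 promoter lies on the minus strand at chr13:100786437-100786736, with 2 CCAAT matches in capitals. The Cdc6 promoter lies on the plus strand at chr11:98907901-98908200, with the reverse complement of TTCCCGC in capitals.
Cdk1: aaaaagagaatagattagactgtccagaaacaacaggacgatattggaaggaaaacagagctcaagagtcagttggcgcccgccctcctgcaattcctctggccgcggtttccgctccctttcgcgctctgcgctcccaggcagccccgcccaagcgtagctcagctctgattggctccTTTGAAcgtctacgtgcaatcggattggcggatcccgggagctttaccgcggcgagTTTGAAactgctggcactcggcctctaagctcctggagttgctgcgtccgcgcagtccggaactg
Ccnb1: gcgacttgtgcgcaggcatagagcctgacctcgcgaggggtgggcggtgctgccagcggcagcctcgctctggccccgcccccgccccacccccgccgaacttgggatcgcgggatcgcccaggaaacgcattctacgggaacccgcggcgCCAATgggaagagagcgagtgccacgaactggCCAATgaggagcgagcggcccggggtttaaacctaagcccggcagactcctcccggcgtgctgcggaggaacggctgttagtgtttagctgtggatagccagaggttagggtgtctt
Cdc6: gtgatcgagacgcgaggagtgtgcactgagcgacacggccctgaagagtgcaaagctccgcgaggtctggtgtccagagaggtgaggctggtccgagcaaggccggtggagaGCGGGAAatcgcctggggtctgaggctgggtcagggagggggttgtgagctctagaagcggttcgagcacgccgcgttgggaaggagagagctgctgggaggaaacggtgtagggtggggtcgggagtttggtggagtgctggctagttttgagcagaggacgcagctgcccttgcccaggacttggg

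Listed genes for making ribosomes, tRNA charging and protein turnover rose almost throughout. All 32 ribosome biogenesis genes (median 2.31), all 20 listed aminoacyl-tRNA synthetases (median 2.64) and all 26 proteasome genes (median 2.43) were called higher. So were 49 of 50 cytosolic ribosomal protein genes (median 1.93), Rps27 having an adjusted p of 0.26. With library totals, 18 synthetases and 45 ribosomal protein genes were called higher and 0 lower. Lars2, the mitochondrial leucyl-tRNA synthetase gene, was not on the synthetase list and fell from 3042 ± 1222 CPM to 1272 ± 43.5 CPM (log2 change -1.26, SE 0.25, adjusted p = 0.00058). Whether all reads counted for Lars2 came from its own message was not tested. Npm1, a nucleolar chaperone of ribosome assembly, was at 253, 176 and 206 CPM before and 3007, 3242 and 3045 CPM after stimulation (log2 change 3.87, SE 0.16, adjusted p = 1.2e-10). The ribosomal protein gene Rpl5 went from 218 ± 50.5 CPM to 1855 ± 112 CPM (log2 change 3.09, SE 0.17, adjusted p = 1.5e-09), and the proteasome gene Psmc6 from 50.7 ± 7.74 CPM to 517 ± 24.7 CPM (log2 change 3.35, SE 0.13, adjusted p = 1e-10). CACGTG, the E-box bound by MYC, was present in 7 of 35 promoters of ribosome biogenesis genes (20%), against 7.15% of all promoters and 11.5% of those of genes called at least 4-fold higher.

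Metabolic genes rose with them. All 20 glycolysis genes (median 2.26) and all 28 oxidative phosphorylation genes (median 2.10) were called higher. With library totals, 15 glycolysis genes were higher and 1 lower, and 26 oxidative phosphorylation genes were higher and 0 lower. Gapdh, a glycolytic enzyme often used as a reference gene, was at 402, 418 and 439 CPM before and 5056, 4916 and 5174 CPM after stimulation (log2 change 3.59, SE 0.16, adjusted p = 2.8e-10). Ldha, which makes lactate, went from 349 ± 11.3 CPM to 4910 ± 738 CPM (log2 change 3.81, SE 0.16, adjusted p = 1.7e-10), and the lactate exporter gene Slc16a3 from 1.4 ± 1.49 CPM to 48 ± 10.9 CPM (log2 change 5.09, SE 0.55, adjusted p = 1.7e-06). Slc16a3 was highest among the 0 hr libraries in replicate 5, and without it the change was 6.49. Cytochrome c (Cycs) went from 85.8 ± 14.2 CPM to 952 ± 53.7 CPM (log2 change 3.47, SE 0.15, adjusted p = 2.4e-10). In sterol and fatty acid synthesis 24 of 25 genes rose (median 2.64), led by the isoprenoid enzyme Idi1 (log2 change 4.98, SE 0.17, adjusted p = 3.6e-11) and squalene epoxidase Sqle (log2 change 4.44, SE 0.28, adjusted p = 7e-09). Scd1, a fatty acid desaturase, was the exception, at 351, 518 and 614 CPM before and 197, 157 and 232 CPM after stimulation (log2 change -1.34, SE 0.20, adjusted p = 3.4e-05).

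Genes of amino acid supply were mostly higher. Of 22 genes for serine synthesis, one-carbon metabolism and amino acid transport, 18 rose and 1 fell (median 2.35). Asns, asparagine synthetase, was at 3.74, 2.94 and 1.12 CPM before and 208, 195 and 279 CPM after stimulation (log2 change 6.47, SE 0.36, adjusted p = 2.2e-09). Psat1, a serine synthesis enzyme, went from 14 ± 2.74 CPM to 561 ± 16.4 CPM (log2 change 5.33, SE 0.18, adjusted p = 4.1e-11). Cth, which makes cysteine (log2 change 7.60, SE 0.48, adjusted p = 7.3e-09), and the cationic amino acid transporter gene Slc7a3 (log2 change 8.22, SE 0.31, adjusted p = 8.3e-11) were among the 10 largest rises of named symbols with at least 5 CPM in the higher group. Leaving out replicates 6 and 12 gave 6.89 (adjusted p = 4.4e-08) for Cth and 8.84 (adjusted p = 1.4e-09) for Slc7a3, which was at 8.97 without replicate 6 alone. The cystine transporter gene Slc7a11 fell (log2 change -0.69, SE 0.18, adjusted p = 0.004). TGATGNAA, the site of ATF4, which controls genes of amino acid shortage, was present in 4 of 20 promoters of the amino acid group (20%) and 5 of 12 of the synthetases (41.7%), against 3.97% of all promoters and 3.35% of those of genes called at least 4-fold higher. The Asns promoter (minus strand, chr6:7693160-7693459) and that of the threonyl-tRNA synthetase Tars (minus strand, chr15:11399609-11399908) are shown with this site in capitals, in Tars on the other strand. Tars itself went from 69.5 ± 6.45 CPM to 588 ± 48.2 CPM (log2 change 3.08, SE 0.13, adjusted p = 2e-10).
Asns: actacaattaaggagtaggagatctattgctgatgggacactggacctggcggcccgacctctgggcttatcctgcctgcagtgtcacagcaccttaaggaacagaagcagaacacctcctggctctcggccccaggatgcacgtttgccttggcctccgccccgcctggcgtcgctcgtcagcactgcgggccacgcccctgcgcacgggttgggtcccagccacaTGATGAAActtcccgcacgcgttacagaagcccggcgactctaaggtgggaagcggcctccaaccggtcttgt
Tars: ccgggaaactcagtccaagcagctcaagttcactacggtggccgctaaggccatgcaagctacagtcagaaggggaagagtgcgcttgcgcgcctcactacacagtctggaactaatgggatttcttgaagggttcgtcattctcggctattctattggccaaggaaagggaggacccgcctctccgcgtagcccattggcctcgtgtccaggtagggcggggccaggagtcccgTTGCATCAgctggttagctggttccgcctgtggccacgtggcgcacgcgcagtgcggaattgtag

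Among genes of the IL-4 pathway, the immunoglobulin constant regions changed most. Of 12 IL-4 and STAT6 targets, 8 rose and 1 fell, with a median of 2.80. Ighg1, the IgG1 constant region (chromosome 12, 113325240 to 113330523 in mm10), was at 0.38, 0.631 and 1.07 CPM before and 197, 149 and 319.8 CPM after stimulation. The lowest 48 hr library was far above the highest 0 hr library (log2 change 8.28, SE 0.36, adjusted p = 2.3e-10). Ighe, the IgE constant region (chromosome 12, 113269260 to 113273248), was at 0.057, 0.123 and 0.323 CPM before and 79.2, 81.9 and 22.5 CPM after stimulation (log2 change 8.42, SE 0.86, adjusted p = 1e-06). Replicate 12 held less Ighe than replicates 10 and 11, and without replicates 6 and 12 the change was 9.72 (adjusted p = 1.6e-06). Counts of a constant region cannot tell its transcription before switching from antibody messages of switched cells.

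The opposite movement was seen in the IgD and IgA constant regions. Ighd, the IgD constant region carried by naive B cells, was at 1623, 1544 and 2085 CPM before and 197, 196 and 369.7 CPM after stimulation, with no overlap (log2 change -2.78, SE 0.23, adjusted p = 1e-07). Igha, the IgA constant region, was at 317, 1170 and 266 CPM before and 13.4, 25.3 and 14.9 CPM after stimulation (log2 change -5.03, SE 0.51, adjusted p = 8.7e-07). KO 0 hr replicate 5 was well above the other 0 hr libraries for Igha, and without it the change was -4.02. Ighg2c was at 3.95 and 1.91 CPM on average and was not called (adjusted p = 0.15). The remaining 4 of 9 listed constant regions had no row of their own and were not analysed here, and reads of similar constant regions may be shared between genes.

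Other IL-4 targets mostly rose, with exceptions. Nfil3, a transcription factor needed for IgE switching, was at 1.58, 3.57 and 1.37 CPM before and 279, 233 and 308 CPM after stimulation (log2 change 6.97, SE 0.31, adjusted p = 2.4e-10). Il4ra averaged 208 CPM at 0 hr and 583 CPM at 48 hr (log2 fold change 1.49), and the feedback inhibitors Cish and Socs1 rose by 6.41 and 3.26 on the log2 scale. Stat6 itself was at 199 and 196 CPM (adjusted p = 0.90). Fcer2a, the low-affinity IgE receptor CD23 and a widely used IL-4 target, was at 547, 569 and 654 CPM before and 714, 712 and 523 CPM after stimulation, with overlapping groups (log2 change 0.14, SE 0.12, adjusted p = 0.33). Its estimate was negative with upper-quartile scaling (-0.49) and library totals (-0.67). With replicates 6 and 12 left out it was called higher, at 0.36 (adjusted p = 0.018), and without replicate 12 alone it was 0.28 (adjusted p = 0.046). Bcl6, the master regulator of germinal centers, was the 1 target that fell, at 32.5, 39 and 75.7 CPM before and 11.6, 12.7 and 6.69 CPM after stimulation (log2 change -2.25, SE 0.29, adjusted p = 1.1e-05); its change was -1.56 (adjusted p = 2.7e-06) without replicates 6 and 12. The STAT6 site (TTC, any 4 bases, then GAA) was present in 1 of 12 promoters matched for 9 of the 12 targets (8.33%), against 6.95% of all promoters and 5.91% of those of genes called at least 4-fold higher.

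**Figure D2:**
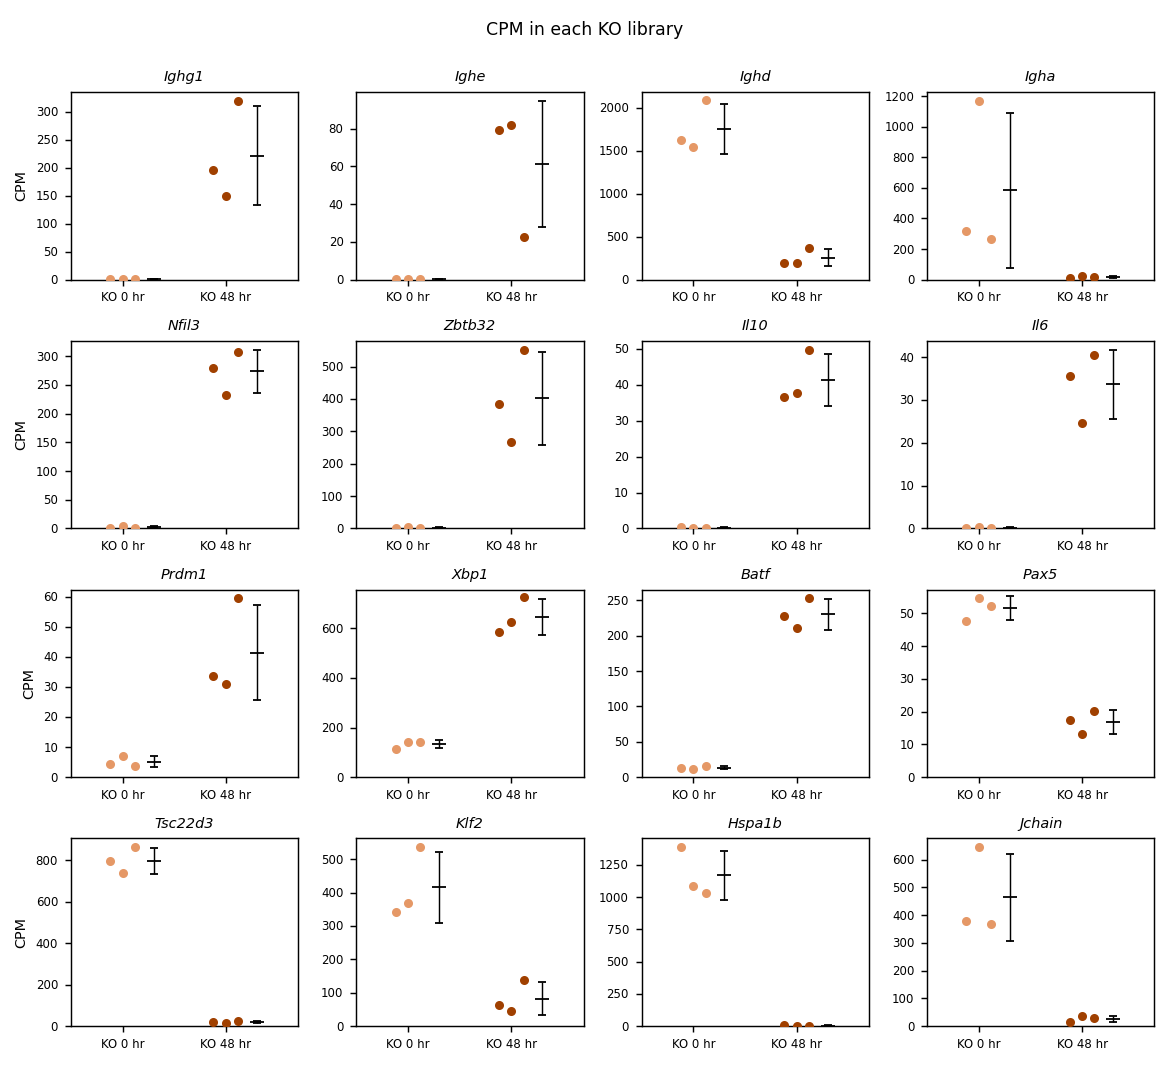
CPM (y axis, linear, each panel with its own scale) of 16 genes in the 3 KO 0 hr and 3 KO 48 hr libraries (points), with the mean and SD beside each group (bars). Ighg1, Ighe, Nfil3, Zbtb32, Il10, Il6, Prdm1, Xbp1 and Batf are higher in all 48 hr libraries, and Ighd, Igha, Pax5, Tsc22d3, Klf2, Hspa1b and Jchain are lower in all of them.

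The machinery of class switching rose broadly. Of 27 tested genes of switching and end joining (29 listed), 23 were higher and 3 lower (median 1.42), or 16 and 5 with library totals. Batf, a transcription factor required for class switching, went from 13.7 ± 1.73 CPM to 230.1 ± 21.6 CPM (log2 change 4.07, SE 0.14, adjusted p = 4.5e-11), and the exonuclease gene Exo1 from 5.36 ± 0.838 CPM to 109 ± 2.78 CPM (log2 change 4.35, SE 0.13, adjusted p = 2.3e-11). Lig4, the ligase of classical end joining, fell (log2 change -0.81, SE 0.21, adjusted p = 0.0033), as did Prkdc, the end-joining kinase DNA-PKcs, and the damage mediator gene Mdc1 (log2 fold changes -0.68 and -0.62).

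LPS-sensing genes moved in both directions, as did all tested genes (33.0% higher, 37.7% lower). Of 18, 8 were higher and 7 lower, with a median of -0.04, or 0.01 with relative log expression scaling. Upper-quartile scaling gave 5 higher and 10 lower (median -0.67), and library totals 3 and 10 (median -0.85). Tlr4, the LPS receptor, was at 24.7, 32.8 and 30.9 CPM before and 41.2, 50 and 48.4 CPM after stimulation, without overlap (log2 change 0.66, SE 0.15, adjusted p = 0.0014), but its estimate was -0.16 with library totals. Tlr7, a receptor for single-stranded RNA, rose most (log2 change 2.71, SE 0.22, adjusted p = 7.1e-08). Tlr9, a receptor for bacterial DNA, fell from 3.66 to 0.553 CPM (log2 fold change -2.72), and the kinase gene Irak2 fell (log2 change -1.22, SE 0.12, adjusted p = 5.1e-07). Cd14, an LPS co-receptor of myeloid cells, was at 5.13, 15 and 1.93 CPM before and 0.542, 0.976 and 0.571 CPM after stimulation (log2 change -3.40, SE 0.64, adjusted p = 0.00031), with a change of -2.33 without KO 0 hr replicate 5; myeloid markers fell as well, and their part in that change was not tested.

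The direction of NF-kB genes depended on scaling. Of 17 subunits and feedback genes, 10 were called higher and 2 lower (median 0.74), against 8 and 7 with upper-quartile scaling (median 0.11) and 6 and 7 with library totals (median -0.07). The subunits Rel, Rela, Relb and Nfkb2 were not called (adjusted p = 0.26, 0.30, 0.60 and 0.11), while Nfkb1 rose by 0.74. Among feedback genes, Tnfaip3, the deubiquitinase A20 that shuts off NF-kB signalling, was at 35.1, 64.2 and 52.5 CPM before and 227, 209.6 and 218 CPM after stimulation (log2 change 2.11, SE 0.18, adjusted p = 1.9e-07), and Traf1 went from 48 ± 5.83 CPM to 281 ± 25 CPM (log2 change 2.55, SE 0.11, adjusted p = 2.3e-10). Cd83, a surface marker of activated B cells, went from 376 ± 57.6 CPM to 2480 ± 44.6 CPM (log2 change 2.72, SE 0.15, adjusted p = 1.8e-09). Nfkbid, an atypical nuclear inhibitor, fell (log2 change -1.78, SE 0.17, adjusted p = 4.6e-07). A kappa B site (GGG, any 2 bases, TT, any base, then CC) was present in 9 of 18 promoters of these genes (50%), against 4.79% of all promoters and 5.85% of those of genes called at least 4-fold higher. The Tnfaip3 promoter (minus strand, chr10:19015361-19015660) holds 1 on the other strand, in capitals.
Tnfaip3: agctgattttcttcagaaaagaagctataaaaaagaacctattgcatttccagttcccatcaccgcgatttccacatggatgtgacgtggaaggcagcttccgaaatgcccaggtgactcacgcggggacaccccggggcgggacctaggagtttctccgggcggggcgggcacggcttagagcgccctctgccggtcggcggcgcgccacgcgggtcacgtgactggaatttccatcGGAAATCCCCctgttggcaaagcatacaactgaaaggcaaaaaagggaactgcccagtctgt

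Cytokine genes were among the largest rises. Of 20 tested of 22 listed, 10 rose and 7 fell (median 0.73, or -0.08 with library totals). Il10, an anti-inflammatory cytokine, was at 0.304, 0.231 and 0.118 CPM before and 36.6, 37.8 and 49.8 CPM after stimulation (log2 change 7.59, SE 0.47, adjusted p = 5.2e-09). Il6, a plasma cell growth factor, was at 0.209, 0.277 and 0.103 CPM before and 35.7, 24.7 and 40.5 CPM after stimulation (log2 change 7.41, SE 0.39, adjusted p = 1.3e-09). The 0 hr libraries were all below 1 CPM for both. Ccl22, a chemokine for regulatory T cells, went from 1.23 ± 0.791 CPM to 96 ± 19 CPM (log2 change 6.26, SE 0.39, adjusted p = 5.5e-09); the change was 6.89 without KO 0 hr replicate 6 and 7.04 (adjusted p = 1.1e-08) without replicate 12 as well. Ltb, which encodes lymphotoxin beta and helps organise lymphoid follicles, was at 804, 740.5 and 694 CPM before and 120.4, 136 and 41.4 CPM after stimulation, with no overlap (log2 change -2.91, SE 0.31, adjusted p = 1.5e-06). Il12b, Il12a, Tgfb1 and Il16 fell too (log2 fold changes -3.17, -1.53, -0.95 and -0.79).

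Surface genes of activation moved in both directions. Of 20 costimulatory and activation genes, 11 rose and 5 fell (median 1.11), or 8 and 7 with library totals (median 0.30). The transferrin receptor Tfrc, which supplies iron, went from 50.5 ± 16.3 CPM to 712 ± 68.7 CPM (log2 change 3.82, SE 0.20, adjusted p = 1.3e-09), and the IL-2 receptor chain Il2ra from 4.43 ± 0.302 CPM to 64.3 ± 23 CPM (log2 change 3.86, SE 0.23, adjusted p = 3.7e-09). Cd86, Cd80, Cd69 and Cd44 rose by 1.76, 1.18, 2.77 and 1.93 on the log2 scale. Icosl, the ligand for the T cell costimulator ICOS, was at 162, 186 and 231 CPM before and 7.69, 6.88 and 6.04 CPM after stimulation, the largest fall in the group (log2 change -4.81, SE 0.17, adjusted p = 5.5e-11). The death receptor Fas rose from 9.59 ± 1.51 CPM to 69.7 ± 16 CPM (log2 change 2.86, SE 0.18, adjusted p = 8.2e-09). Tnfrsf8, which encodes CD30 (log2 change 8.21, SE 0.50, adjusted p = 4.9e-09), and the vitamin D receptor Vdr (log2 change 8.10, SE 0.88, adjusted p = 1.9e-06) were among the 10 largest rises as well. Vdr was at 0.038, 0.123 and 0.0882 CPM before and 30.3, 31 and 11.1 CPM after stimulation. In WT it averaged 0.23 CPM at 0 hr and 0.675 CPM at 48 hr and was not called (log2 change 1.51, SE 0.79, adjusted p = 0.096). The KO response minus the WT response of Vdr was 6.59 and was not called either (SE 1.18, adjusted p = 0.061). For Vdr, replicate 12 was lowest of the 48 hr libraries, and the KO change was 8.47 (adjusted p = 9.9e-06) without replicates 6 and 12. The change of Tnfrsf8 was 8.92 without KO 0 hr replicate 6.

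Interferon-response genes rose in the same cells. Of 34, 28 were higher and 2 lower (median 2.08). Ifit1, an inhibitor of viral translation, was at 5.18, 5.68 and 7.13 CPM before and 216, 197 and 263 CPM after stimulation (log2 change 5.23, SE 0.22, adjusted p = 1.7e-10). Ifih1, which encodes the RNA sensor MDA5, went from 5.09 ± 1.73 CPM to 129 ± 11 CPM (log2 change 4.66, SE 0.23, adjusted p = 5.2e-10), and the chemokine Cxcl10 from 0.464 ± 0.193 CPM to 11.2 ± 1.57 CPM (log2 change 4.58, SE 0.31, adjusted p = 1.3e-08). Ifit3 (log2 change -1.47, SE 0.24, adjusted p = 0.00011) and Irf1 (log2 fold change -0.70) fell. Irg1, which encodes the itaconate-producing enzyme of LPS-activated cells, was at 0.171, 0.123 and 0.0294 CPM before and 35, 33.4 and 31.1 CPM after stimulation (log2 change 8.29, SE 0.39, adjusted p = 4.4e-10).

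Plasma cell genes were mixed. Of 20, 11 rose and 6 fell (median 0.82, or -0.01 with library totals). Prdm1, which encodes BLIMP1, the factor that sets the secretory program, was at 4.54, 7.15 and 3.69 CPM before and 33.5, 31 and 59.5 CPM after stimulation (log2 change 3.01, SE 0.29, adjusted p = 5.1e-07). Its 48 hr libraries did not overlap with 0 hr, and replicate 12 was the highest. Xbp1, which expands the secretory apparatus, was at 115, 141 and 143 CPM before and 583, 624 and 725 CPM after stimulation (log2 change 2.28, SE 0.12, adjusted p = 1.6e-09). Irf4 went from 61.3 ± 19.5 CPM to 137 ± 23.6 CPM (log2 change 1.16, SE 0.21, adjusted p = 0.00029) and Zbtb32, a repressor of secondary antibody responses, from 2.23 ± 0.963 CPM to 402 ± 143 CPM (log2 change 7.48, SE 0.33, adjusted p = 2.6e-10). By contrast, Jchain, the joining chain of polymeric antibody, was at 380.1, 645 and 369 CPM before and 15.4, 36.8 and 27.3 CPM after stimulation (log2 change -4.13, SE 0.31, adjusted p = 4.5e-08), and the plasma cell surface gene Sdc1 fell by 0.68 on the log2 scale.

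Genes of the endoplasmic reticulum were mostly higher. Of 30 chaperone and unfolded-protein response genes, 26 were higher and 1 lower (median 1.79). Sdf2l1 (log2 change 3.43, SE 0.13, adjusted p = 9.6e-11), Manf (log2 change 3.42, SE 0.15, adjusted p = 2.4e-10) and the disulfide isomerase Pdia6 (log2 change 3.12, SE 0.12, adjusted p = 9.8e-11) led the group. The main chaperone genes Hspa5 and Hsp90b1 rose by 2.88 and 3.08. The oxidase gene Ero1lb was the 1 that fell, at 207, 214 and 203 CPM before and 154, 171 and 177 CPM after stimulation (log2 change -0.31, SE 0.09, adjusted p = 0.0075). CCACG, a 5-base part of the endoplasmic reticulum stress element, was present in 19 of 22 of these promoters (86.4%), against 32.8% of all and 49.5% of those of genes called at least 4-fold higher. CCACG and the E-box CACGTG can overlap in the same letters.

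Germinal center genes moved in both directions, in shares near those of all genes (33.0% higher, 37.7% lower). Of 15, 6 rose and 6 fell (median -0.22), or 3 and 8 with library totals (median -1.04). Besides Fas, Il21r, Mybl1 and Basp1, Mef2b, a transcription factor of germinal center B cells, rose (16 to 80.9 CPM on average, log2 fold change 2.34). Rgs13, a regulator of chemokine signalling (log2 change -2.59, SE 0.48, adjusted p = 3e-04), and Efnb1 (log2 change -1.99, SE 0.39, adjusted p = 4e-04) fell, as did Bcl6; the change of Rgs13 was -1.89 without KO 0 hr replicate 6, and that of Efnb1 -1.40 (adjusted p = 0.0072) without replicates 6 and 12.

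Genes that hold lymphocytes at rest were lower. Of 16 quiescence factors, 14 fell and 1 rose (median -1.64). Tsc22d3, a glucocorticoid-induced repressor of proliferation, was at 796, 737 and 864 CPM before and 17.2, 16.2 and 23.3 CPM after stimulation (log2 change -5.40, SE 0.16, adjusted p = 1.8e-11). No library of the groups overlapped. Klf2, a factor of naive lymphocyte quiescence and homing, was at 341, 369.7 and 537 CPM before and 62.4, 44.5 and 137 CPM after stimulation, with no overlap (log2 change -2.35, SE 0.33, adjusted p = 2.4e-05), and changed by -2.96 without KO 48 hr replicate 12. The antiproliferative gene Btg1 went from 1248 ± 121 CPM to 181 ± 43.6 CPM (log2 change -2.78, SE 0.16, adjusted p = 2.8e-09) and the glucose uptake inhibitor Txnip from 474 ± 53.2 CPM to 71.6 ± 0.659 CPM (log2 change -2.73, SE 0.12, adjusted p = 2.2e-10). Slfn2, which keeps T cells quiescent, was the exception, rising from 251 ± 65.2 CPM to 619.8 ± 129 CPM (log2 change 1.30, SE 0.18, adjusted p = 1.7e-05).

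B cell identity genes were mostly lower. Of 20, 16 were lower and 1 higher (median -1.35), and their summed level was 11800 to 15300 CPM at 0 hr and 7030 to 8260 CPM at 48 hr. Pax5, the factor that maintains B cell identity, was at 47.7, 54.7 and 52.3 CPM before and 17.4, 13.1 and 20.3 CPM after stimulation (log2 change -1.61, SE 0.17, adjusted p = 1.5e-06). The complement receptor Cr2 went from 814 ± 132 CPM to 37.6 ± 6.82 CPM (log2 change -4.44, SE 0.22, adjusted p = 7.7e-10) and the IgM receptor Fcmr from 767 ± 135 CPM to 31.5 ± 22.7 CPM (log2 change -4.61, SE 0.39, adjusted p = 1.5e-07). The change of Fcmr was -5.37 without KO 48 hr replicate 12 and -5.24 without replicates 6 and 12. Cd79a, a signalling chain of the B cell receptor, fell (log2 change -1.60, SE 0.12, adjusted p = 3e-08), while Cd79b was not called (1420 and 1280 CPM, adjusted p = 0.41). Ms4a1, which encodes CD20, was at 1484, 1596 and 1964 CPM before and 2440, 2769 and 2607 CPM after stimulation (log2 change 0.63, SE 0.17, adjusted p = 0.0039), but its estimate was -0.18 with library totals. Bach2, which holds back plasma cell differentiation, was at 165, 174 and 207 CPM before and 148, 135 and 127 CPM after stimulation (log2 change -0.41, SE 0.12, adjusted p = 0.0089), but the call was lost without KO 0 hr replicate 6 (-0.30, adjusted p = 0.051) and without replicates 6 and 12 (-0.25 (adjusted p = 0.14)).

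Related surface programs fell in part. Among 19 homing and adhesion receptors 11 fell and 5 rose (median -0.71). S1pr1, the egress receptor, was at 287, 361 and 365 CPM before and 30.3, 37.9 and 47.8 CPM after stimulation (log2 change -3.13, SE 0.18, adjusted p = 2.3e-09). The gut-homing integrin chain Itgb7 (log2 change -3.79, SE 0.29, adjusted p = 5.2e-08) and the chemokine receptor Ccr6 (log2 change -3.18, SE 0.31, adjusted p = 6.1e-07) fell, while Itgb1 rose (log2 change 2.61, SE 0.24, adjusted p = 3e-07). Gpr15, a homing receptor of gut lymphocytes outside that group, was at 0, 0.354 and 0.397 CPM before and 50.8, 60.9 and 59.9 CPM after stimulation (log2 change 7.75, SE 0.49, adjusted p = 6.5e-09). Of 22 B cell receptor signalling genes 12 fell and 2 rose (median -0.37, close to the median of all genes), or 21 and 0 with library totals, led by the calcium channel Itpr2 (log2 change -2.25, SE 0.14, adjusted p = 4.6e-09). In MHC class II presentation 8 of 13 fell and 1 rose (median -0.54). The invariant chain Cd74 was at 14920, 16110 and 17110 CPM before and 7225, 7130 and 7461 CPM after stimulation (log2 change -1.14, SE 0.10, adjusted p = 2e-07), and H2-Ob, which restrains peptide loading, fell further (log2 change -2.15, SE 0.16, adjusted p = 4.1e-08). Of 16 marginal zone B cell genes 9 fell and 3 rose (median -1.67; 12 and 1 with library totals), among them Hes1, a Notch target (log2 change -6.18, SE 0.37, adjusted p = 3.8e-09; -6.79 without replicates 6 and 12), and Cd1d1 (log2 change -3.81, SE 0.12, adjusted p = 3.1e-11).

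Immediate early genes and the inducible HSP70 genes were mostly lower at 48 hr. Of 21 immediate early genes 13 fell and 6 rose (median -1.34). Fos was at 29.6, 23.6 and 9.13 CPM before and 0.764, 1.66 and 1.27 CPM after stimulation (log2 change -4.08, SE 0.47, adjusted p = 3.7e-06) and the B cell receptor-induced gene Nr4a1 at 59.8, 112 and 34.2 CPM before and 7.12, 7.47 and 4.41 CPM after stimulation (log2 change -3.44, SE 0.35, adjusted p = 9.2e-07). For both, all 0 hr libraries were above all 48 hr libraries. Atf3, a stress-response factor, rose (log2 change 4.57, SE 0.44, adjusted p = 5.5e-07); its change was 5.51 without KO 0 hr replicate 5 and 3.98 (adjusted p = 1e-06) without replicates 6 and 12. Heat shock genes moved apart: 16 of 22 rose and 4 fell (median 1.91). The inducible HSP70 gene Hspa1b was at 1387, 1089 and 1032 CPM before and 5.99, 4.35 and 2.65 CPM after stimulation (log2 change -8.07, SE 0.32, adjusted p = 1.1e-10); its near-identical copy Hspa1a fell by 7.88, and reads may be shared between both. The constitutive Hspa8 went from 1942 ± 435 CPM to 5712 ± 274 CPM (log2 change 1.56, SE 0.17, adjusted p = 1.7e-06) and the chaperonin subunit Tcp1 from 143 ± 20.9 CPM to 1441 ± 75.4 CPM (log2 change 3.34, SE 0.14, adjusted p = 2.1e-10). The sources used here do not give the delay between tissue collection and lysis.

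Survival and p53 genes also changed. In the BCL2 family 11 of 18 were called higher and 5 lower (median 1.12), against 8 and 7 with upper-quartile scaling (median 0.49) and 7 and 7 with library totals (median 0.31). The protective gene Bcl2l1, which encodes BCL-XL, was at 10.7, 10.6 and 8.73 CPM before and 97.7, 95.9 and 84.5 CPM after stimulation (log2 change 3.21, SE 0.12, adjusted p = 7.9e-11), while Bcl2 itself fell by 1.58 and the killer gene Bmf fell (log2 change -2.89, SE 0.30, adjusted p = 1.1e-06). Bcl2a1d (log2 change 4.24, SE 0.13, adjusted p = 2.4e-11) and Bcl2a1b (log2 change 3.35, SE 0.17, adjusted p = 9e-10) rose, but reads of these near-identical copies may be split between them. Of 24 tested p53 targets 15 rose and 7 fell (median 1.25), or 12 and 9 with library totals (median 0.44). Cdkn1a, which encodes the inhibitor p21, was at 3.46, 3.2 and 2.9 CPM before and 12.8, 6.7 and 10.6 CPM after stimulation, without overlap (log2 change 1.65, SE 0.28, adjusted p = 0.00013). Phlda3 rose (log2 change 3.34, SE 0.56, adjusted p = 0.00012) and Btg2, also a quiescence factor, fell (log2 change -2.43, SE 0.14, adjusted p = 3e-09).

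Genes of the NuRD complex, of which CHD4 is a subunit, were mostly higher. Of 15 such genes 9 rose and 3 fell (median 1.36), or 7 and 4 with library totals (median 0.54). The histone-binding subunits Rbbp7 (log2 change 2.44, SE 0.11, adjusted p = 3.2e-10) and Rbbp4 (log2 change 1.92, SE 0.14, adjusted p = 4.4e-08) and the deacetylase Hdac2 (log2 change 2.11, SE 0.11, adjusted p = 8.9e-10) rose. Chd3, a close relative of Chd4, was at 57.4, 50.2 and 28.5 CPM before and 31.2, 29.9 and 19.1 CPM after stimulation, with overlapping groups (log2 change -0.76, SE 0.29, adjusted p = 0.029), and was not called in 3 of the 12 fits without 1 library. Lysosomal genes were near the median: 5 of 20 rose and 8 fell (median -0.09), or 4 and 14 with library totals, from Lamp2 (log2 change 2.31, SE 0.20, adjusted p = 2.1e-07) to Npc1 (log2 change -1.11, SE 0.14, adjusted p = 7.2e-06).

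Many of the largest falls were in genes that B cells are not known for. Erythroid and platelet markers fell in 11 of 12 tested (median -5.79), and their summed level was 384 to 3640 CPM at 0 hr and 55.5 to 118 CPM at 48 hr. The alpha-globin gene Hba-a2 was at 1785, 156 and 462 CPM before and 4.21, 0.791 and 1.5 CPM after stimulation (log2 change -8.52, SE 0.90, adjusted p = 1.7e-06), highest in 0 hr replicate 4; without that library the change was -7.14, and without KO 48 hr replicate 10 it was -9.44. Of 18 tested myeloid markers 15 fell and 1 rose (median -2.91), with sums of 201 to 531 CPM and 118 to 131 CPM. Itgax, a dendritic cell integrin, was at 16.6, 33.4 and 10.7 CPM before and 0.0493, 0 and 0.311 CPM after stimulation (log2 change -7.37, SE 0.85, adjusted p = 3.3e-06); the fitted change was -9.49 without KO 48 hr replicate 12 and -9.79 (adjusted p = 2.7e-06) without replicates 6 and 12. The dendritic growth factor receptor gene Flt3 rose (log2 change 1.49, SE 0.17, adjusted p = 4.2e-06), as it did in WT. T cell markers fell in 10 of 13 tested (median -2.32), but their sums overlapped, at 65 to 138 CPM and 47 to 117 CPM, and were led by Lck (73.3 and 86.4 CPM, not called), which B cells can also express. Replicate 6 was the lowest 0 hr library and replicate 12 the lowest 48 hr library for both T and NK cell sums. NK cell markers fell in 6 of 10 and rose in 1 (median -2.60; sums 18.8 to 37.5 CPM and 7.13 to 19.8 CPM). Stromal and endothelial markers fell in 7 of 13 (median -1.71; sums 197 to 271 CPM and 56.1 to 71.8 CPM). Up to 2 markers of a list were at 0 counts in a 0 hr KO library and up to 4 in a 48 hr KO library.

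Single genes with large falls included macrophage and red cell genes. Fcna, a ficolin of macrophages, had 1919 counts over the 0 hr libraries and 1 over the 48 hr libraries, a ratio of 1210 (exact 95% interval 217 to 47800). For Hpgd the ratio was 686 (190 to 5670), for Itgad 481 (133 to 3980), for Car1 364 (100 to 3010), for Sirpb1a 319 (109 to 1550) and for Aqp1 286 (97.8 to 1390). These intervals cover counting error only. Slc40a1, the iron exporter of red pulp macrophages, was at 28.3, 79.8 and 20.4 CPM before and 0.0985, 0.0791 and 0.0778 CPM after stimulation (log2 change -8.93, SE 0.75, adjusted p = 1.3e-07). Its change was -8.11 without KO 0 hr replicate 5. The fitted change of Car1 was -8.45, or -6.96 without KO 0 hr replicate 4, and that of Aqp1 -8.18, or -6.46 without the same library. Without replicates 6 and 12 that of Car1 was -9.35. Itgad was at -8.69, or -7.77 without KO 0 hr replicate 5 and -11.63 with KO 48 hr replicate 10 left out, and Sirpb1a at -8.19, or -9.04 without the latter. Fcna was at -9.85, or -9.13 without KO 0 hr replicate 5 and -11.98 with KO 48 hr replicate 12 left out. Without replicates 6 and 12 it was at -12.26. With so few counts at 48 hr these fitted values depend on the prior count and are no bounds. The part of other cells in the falls described above was not tested.

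**Figure D3:**
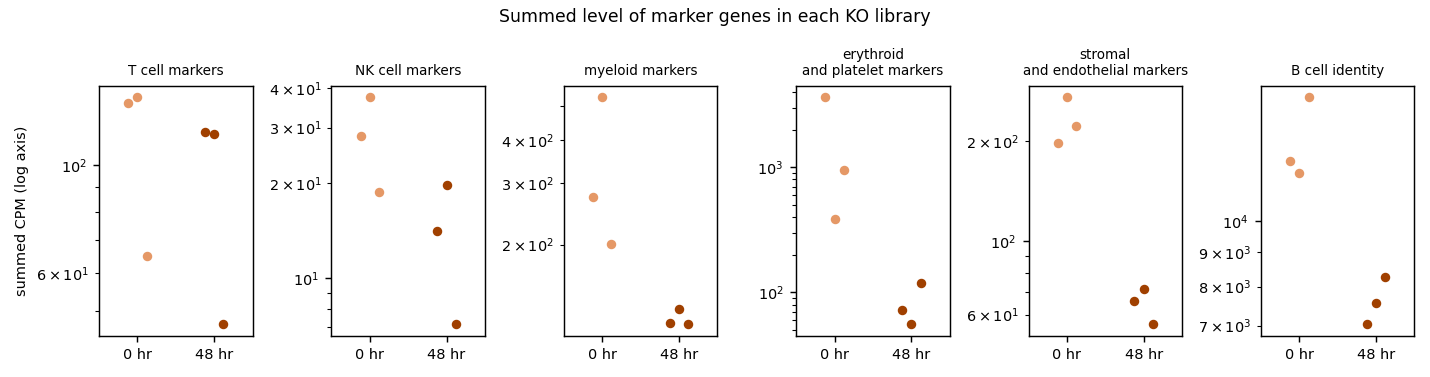
Summed CPM (y axis, log scale, each panel with its own range) of the markers of 5 other cell types and of B cell identity genes in each KO library (points) at 0 hr and 48 hr. Erythroid, myeloid, stromal and B cell identity sums are lower in all 48 hr libraries, while T cell and NK cell sums overlap.

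The differences in CPM, which favour long and abundant transcripts, were largest for Ppia, an abundant protein-folding enzyme (1287 ± 207 CPM to 9652 ± 498 CPM; log2 change 2.91, SE 0.16, adjusted p = 2.3e-09), the collected antibody variable segments listed as abParts (12170 ± 1090 CPM to 17300 ± 2115 CPM; log2 change 0.51, SE 0.14, adjusted p = 0.006), and Gapdh, Ldha and Hspa8 among genes that rose. The abParts estimate was -0.13 with upper-quartile scaling, -0.31 with library totals, and 0.44 (adjusted p = 0.051) without replicates 6 and 12. The largest losses were in Cd74, AK155692 (9448 ± 4510 CPM to 3200 ± 232 CPM; log2 change -1.56, SE 0.28, adjusted p = 0.00023), the nuclear noncoding RNA Malat1 (4045 ± 1714 CPM to 467 ± 32.5 CPM; log2 change -3.12, SE 0.28, adjusted p = 3.1e-07), Lars2 (log2 change -1.26, SE 0.25, adjusted p = 0.00058) and Cd79a.

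The comparison with WT asks whether cells labelled KO responded differently. Most changes were shared. In WT 6311 genes were higher (33.0%) and 7827 lower (40.9%), 73.9% in all. Called genes of both genotypes moved the same way in 12191 cases and opposite ways in 19, while 1307 were called in KO alone and 1928 in WT alone. Across genes the responses had Pearson's r = 0.89 and Spearman's rho = 0.915 as a description over 19125 genes, which share 1 fit and 1 scaling and are not independent replicates. Among genes called in both, the median ratio of KO to WT log2 change was 0.96. Sex-linked genes differed too. Xist, expressed from the inactive X chromosome, averaged 259 CPM in WT and 1.57 CPM in KO at 0 hr, and the Y-linked gene Ddx3y averaged 26 and 119.9 CPM (n = 3 each), so genotype and sex-linked expression cannot be told apart in this comparison.

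**Figure D4:**
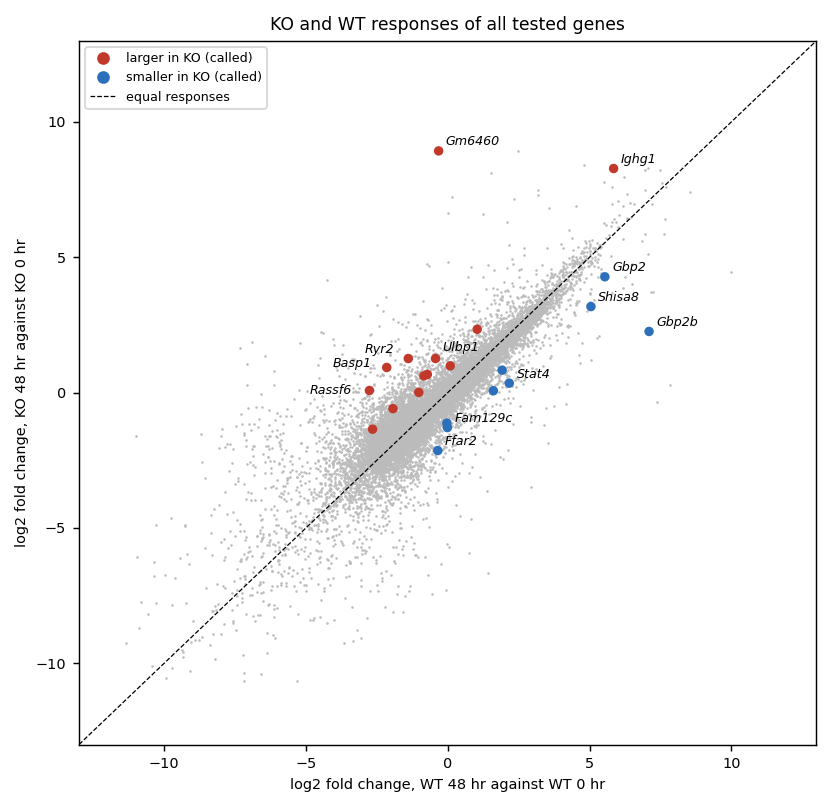
Log2 fold change over 48 hr in KO (y axis) against WT (x axis) for 19125 tested genes (grey). Coloured points are the 13 genes whose response was higher and the 9 whose response was lower in KO by the interaction test, and the dashed line marks equal responses.

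The difference of the responses was itself tested as an interaction. Of 19125 genes 13 had a higher response in KO (0.0680%) and 9 a lower one (0.0471%), 22 in all (0.115%), and 1646 passed an unadjusted p of 0.05. This count rests on few libraries. Leaving out 1 library gave 0 to 62 higher and 3 to 28 lower, with 62 and 28 without KO 48 hr replicate 12 and 28 and 28 without KO 0 hr replicate 6. Without both it was 88 and 48. Without WT 48 hr replicate 7, 8 or 9 it was 0 to 1 higher and 3 lower. It was 6 and 6 without KO 0 hr replicate 4, and 2 higher with 4 to 5 lower when KO 48 hr replicate 10 or 11 was left out. Omitting replicate 1 or 3 of the unstimulated WT group gave 2 higher and 3 to 4 lower. DESeq2 called 116 and 105, and limma-voom 10 and 7.

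Of the 22, Gbp2b, Shisa8 and Stat4 were called in all 12 fits that left out 1 library. Stat4, a transcription factor of IL-12 and interferon signalling, was at 58.1, 59.8 and 67.4 CPM before and 79.4, 71 and 85.1 CPM after stimulation in KO and at 86.8, 111 and 82.1 CPM before and 414, 431 and 414 CPM after in WT. Every WT 48 hr library was several times above every other library, and the KO groups lay close together without overlap. The change was 0.35 in KO and 2.17 in WT, a difference of -1.82 (SE 0.17, adjusted p = 0.0013). In KO the sign depended on scaling (-0.29 with upper-quartile scaling, -0.47 with library totals), 4 of the 12 fits without 1 library lost the call, and without replicates 6 and 12 the change was 0.36 (adjusted p = 0.052). Gbp2b, a guanylate-binding protein of the interferon response, was at 3.78, 5.78 and 2.37 CPM before and 21.1, 14.2 and 21.8 CPM after stimulation in KO and at 0.211, 1.03 and 0.597 CPM before and 78.3, 87.9 and 82.3 CPM after in WT, a difference of -4.83 (SE 0.53, adjusted p = 0.0027). Shisa8 was at 11.1, 12.3 and 13.1 CPM before and 100.3, 102 and 130.4 CPM after stimulation in KO and at 4.11, 4.03 and 3.21 CPM before and 144, 109 and 123 CPM after in WT, a difference of -1.87 (SE 0.21, adjusted p = 0.0027). At 48 hr its levels in both genotypes overlapped, and the 0 hr levels were higher in KO. Gbp2, like Gbp2b a target with similar copies among which reads may be shared, averaged 470.4 CPM in KO and 1334 CPM in WT after stimulation.

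**Figure D5:**
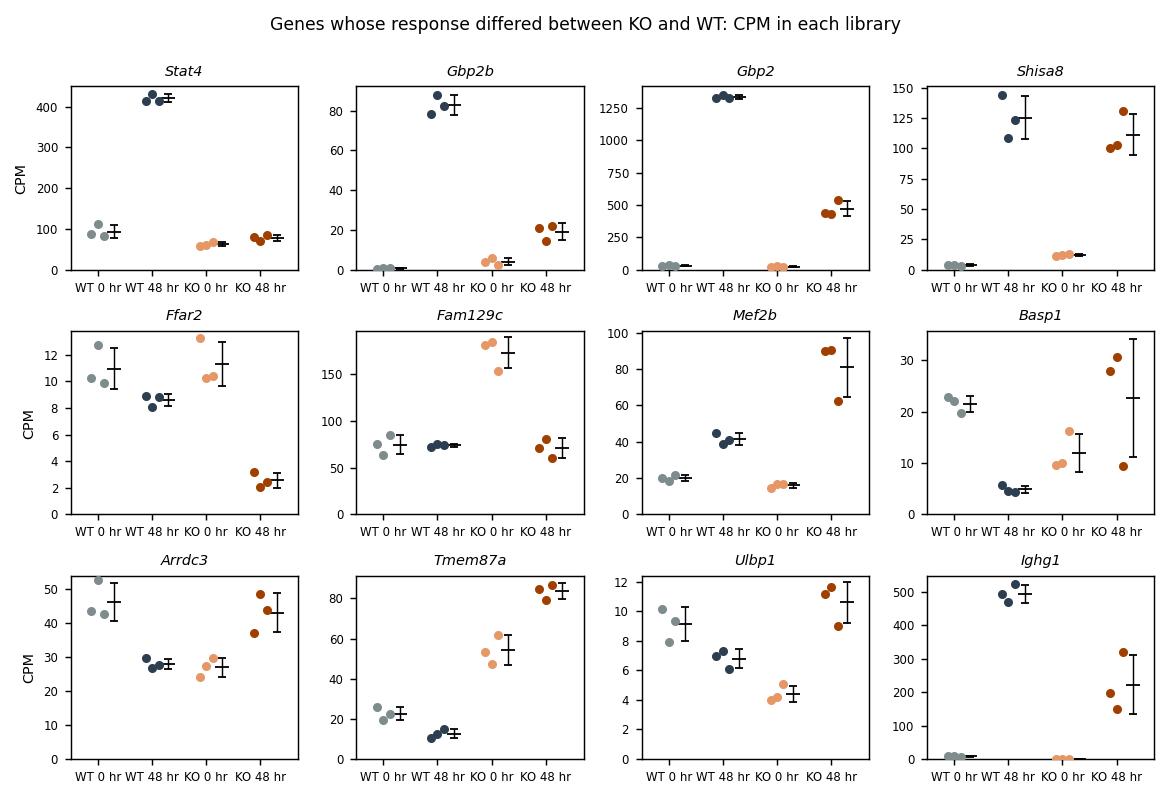
CPM (y axis, linear, each panel with its own scale) of 12 genes whose response differed between KO and WT, in each library of the 4 groups (points), with mean and SD (bars). Stat4 and Gbp2b rose far more in WT, Ffar2 and Fam129c were called lower in KO and not in WT, and Mef2b reached higher levels in KO.

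Some genes were called in 1 genotype and not in the other. Ffar2, a receptor for short-chain fatty acids, was at 13.2, 10.3 and 10.4 CPM before and 3.18, 2.08 and 2.41 CPM after stimulation in KO (log2 change -2.14, SE 0.21, adjusted p = 5.5e-07) and changed by -0.35 in WT, a difference of -1.79 (SE 0.28, adjusted p = 0.029). Fam129c, a B cell gene, was at 181, 184 and 154 CPM before and 71.3, 81 and 59.9 CPM after stimulation in KO and at 75.5, 63.8 and 84.6 CPM before and 72.5, 75.8 and 74.1 CPM after in WT, a difference of -1.28 (SE 0.19, adjusted p = 0.022). For Eps8 the change was 0.07 in KO (not called; negative with upper-quartile scaling and library totals) and 1.61 in WT (difference -1.54, SE 0.26, adjusted p = 0.044). The call on this difference was lost without replicates 6 and 12 (-1.42, adjusted p = 0.051), in 9 of the 12 fits without 1 library and in limma-voom (adjusted p = 0.06).

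Other genes were called in opposite directions. Tmem87a was at 53.5, 47.3 and 61.9 CPM before and 84.8, 79 and 86.7 CPM after stimulation in KO and at 25.9, 19.3 and 22.6 CPM before and 10.6, 12.3 and 15 CPM after in WT, a difference of 1.46 (SE 0.21, adjusted p = 0.022), although its KO estimate was -0.01 with upper-quartile scaling and -0.19 with library totals. Arrdc3, an arrestin-domain gene, rose by 0.67 in KO (-0.14 with library totals) and fell by 0.72 in WT (difference 1.39, SE 0.19, adjusted p = 0.015). Ulbp1, a ligand of the NK receptor NKG2D, changed by 1.26 and -0.43 (difference 1.69, SE 0.26, adjusted p = 0.029), and the calcium release channel gene Ryr2 by 1.26 and -1.39 (difference 2.65, SE 0.45, adjusted p = 0.044). Basp1 was at 9.57, 10.1 and 16.2 CPM before and 28, 30.6 and 9.41 CPM after stimulation in KO and fell by 2.15 in WT (difference 3.07, SE 0.49, adjusted p = 0.029). KO 48 hr replicate 12 lay below every KO 0 hr library. Without replicates 6 and 12 the KO change of Basp1 was 1.58 (adjusted p = 7e-06) and the difference 3.72 (adjusted p = 3.2e-05). Rassf6 was called in WT and not in KO: it changed by 0.08 in KO (0.68, adjusted p = 0.057, without replicates 6 and 12) and -2.76 in WT (difference 2.84, SE 0.48, adjusted p = 0.044). The KO estimate of Rassf6 was below 0 without KO 0 hr replicate 5 (-0.12) or KO 48 hr replicate 10 or 11 (-0.05 and -0.14). Its difference was 3.44 (adjusted p = 0.002) without replicates 6 and 12.

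Ighg1 had a larger fold in KO from a lower start. Its WT libraries were at 8.56, 9.76 and 7.38 CPM before and 493, 468 and 522 CPM after, so the WT level was higher at both times, and the difference of the responses was 2.43 (SE 0.41, adjusted p = 0.044). Of the 12 fits without 1 library, 9 lost the call, and limma-voom gave an adjusted p of 0.22. Ighe ended at 79.2, 81.9 and 22.5 CPM in KO and at 33.1, 34.2 and 29.4 CPM in WT, a difference of 3.61 (SE 1.06, adjusted p = 0.3) that was not called, also without replicates 6 and 12 (4.90, adjusted p = 0.074). Prdm1 changed by 3.01 in KO and 1.11 in WT (difference 1.90, SE 0.39, adjusted p = 0.1), and Cdkn1a by 1.65 and -0.08 (difference 1.73, SE 0.39, adjusted p = 0.14), neither of them called. For Ccnd2 the difference was not called with all libraries, but was -1.59 (adjusted p = 0.003) without replicates 6 and 12. In the germinal center group the median response was -0.22 in KO and -1.48 in WT, with 14 of 15 differences positive and 2 called (Mef2b and Basp1, lost in 8 and 10 of the 12 fits without 1 library and in limma-voom, with adjusted p = 0.06 and 0.091), beside 0.115% of all genes and a median difference of 0.01.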

How the data were processed

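RNA of mouse splenic B cells was read as paired ends from SMART-Seq cDNA, which does not record strand, per the labels' protocols. The deposited values are expected counts per transcript, written by the authors as whole numbers; bcl2fastq 2.20.0.422, Trimmomatic 0.36, Salmon 0.8.2, DESeq2 1.14.1 and mm10 are named in the submitters' processing notes. Counts of 63759 transcripts were summed over 32699 gene names after spaces were trimmed from 344 names. R 4.3.3 and edgeR 4.0.16 (TMM scaling, robust quasi-likelihood fit of the 4 groups, 8 residual degrees of freedom, filterByExpr, Benjamini-Hochberg adjustment) gave the tests; the low-count filter kept 19125 genes. List members without a row or below the filter are counted as not tested. DESeq2 1.42.0, limma 3.58.1 with voom, other scalings, other filters and fits that left out libraries were alternatives. The test was also run on simulated data in which few genes changed, which cannot check scaling where most genes change. Library totals were 39 M to 53.2 M, and intervals cover counting error only.

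Named genes were Chd4, the 10 largest rises and 10 largest falls (at least 5 CPM, groups not overlapping, predicted symbols passed over), the 5 largest gains and losses of CPM, up to 3 members of each list in the direction of its median and 1 in the other, the largest interactions, and a fixed set of B cell genes. A few genes that this rule names are not reported here. Other members given with values were chosen after their values were seen. The members and lists were chosen with earlier results of these data known. Genes with near-identical copies (HSP70, globin, BCL2A1, histone, guanylate-binding and constant-region genes) can share reads. Gene positions are from GENCODE M21 on mm10, and promoters are from RefSeq.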

Additional observations from a re-analysis of the deposited data

Results flagged for a closer look

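The response of 22 genes differed between KO and WT by the interaction test in edgeR (adjusted p below 0.05), and each value here is the KO response minus the WT response on the log2 scale. Stat4 (-1.82), Gbp2b (-4.83) and Shisa8 (-1.87) were the genes called in all 12 fits that left out 1 library. Ffar2 (-1.79), Eps8 (-1.54), Fam129c (-1.28), Gbp2 (-1.26), Akr7a5 (-1.10) and Grn (-1.09) also had a lower response in KO and lost the call in 5 to 9 of those fits. A higher response in KO was estimated for Gvin1 (0.90), Kdm5d (1.02), Hs3st1 (1.30), Mef2b (1.30), Atp10d (1.34), Arrdc3 (1.39), Tmem87a (1.46), Ulbp1 (1.69), Ighg1 (2.43), Ryr2 (2.65), Rassf6 (2.84), Basp1 (3.07) and Gm6460 (9.25), with the call lost in 3 to 11 fits. Gbp2, Akr7a5, Grn, Gvin1, Kdm5d, Hs3st1, Mef2b, Atp10d and Gm6460 fall outside the rule for named genes and were added, after their values were seen, to complete the 22.

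Gm6460, a predicted gene, had 0 counts over the KO 0 hr libraries and 147 over the KO 48 hr libraries, at least 77.7-fold higher (the floor being 3 counts in all 3 libraries together), so its fitted value is no bound. Kdm5d is Y-linked, and it averaged 44.2 and 44.5 CPM in KO and 14.6 and 7.21 CPM in WT at 0 hr and 48 hr. Akr7a5 fell in KO by 1.13 on the log2 scale and changed by -0.03 in WT. Grn rose by 0.83 in KO and 1.92 in WT. Hs3st1 changed by -1.35 in KO and -2.65 in WT, and Atp10d by -0.59 and -1.93.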

How the results depend on the processing

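Genes higher and lower in KO numbered 6311 and 7206, or 5949 to 6339 and 6591 to 7485 when 1 library was left out. They numbered 3484 and 3790 with a 2-fold minimum, and 3657 and 11344 with library totals, an alternative added after seeing the data. The difference of the responses (13 higher and 9 lower) gave 116 and 105 with DESeq2, 1 and 1 with a 2-fold minimum, 21 higher with library totals, 88 and 48 without both KO libraries that lay apart (also added after seeing the data), and 0 to 62 and 3 to 28 when 1 library was left out. The cause was not tested. Of the 190 named genes called in KO, 182 kept the call in all 12 fits that left out 1 library; those that lost it in at least 1 included Chd4, Hist1h2bc, Ero1lb, Chd3, Basp1, Stat4 and Bach2. Estimates turned negative with upper-quartile scaling for abParts (-0.13), Rassf6 (-0.54), Tmem87a (-0.01), Stat4 (-0.29), Eps8 (-0.56) and Fcer2a (-0.49); with library totals for abParts (-0.31), Ms4a1 (-0.18), Rassf6 (-0.73), Tmem87a (-0.19), Stat4 (-0.47), Eps8 (-0.75), Arrdc3 (-0.14), Fcer2a (-0.67) and Tlr4 (-0.16); and with a filter of 1 CPM in 3 libraries for Rassf6 (-0.10), Eps8 (-0.12) and Fcer2a (-0.04). With 1 library left out, the KO change ran from -0.13 to 0.28 for Eps8 and from -0.14 to 0.41 for Rassf6. Differences of responses near 0 changed sign as well: with 1 library left out they ran from -0.27 to 0 for Tlr4, up to 0.02 for Myc and from -0.20 to 0.06 for Fcer2a, which was 0 with library totals and 0.14 with both KO libraries that lay apart removed. No paired analysis was possible because the replicate numbers 1 to 12 are unique, so the groups share none.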
